A study of Homo sapiens with 6 samples.

Results

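E2F transcription factors and the pocket proteins that bind them form the switch between resting and dividing cells, and the 10 genes described here were taken by name from a table of 58735 genes. They are the activators E2F1, E2F2 and E2F3, the repressors E2F4 and E2F5, the atypical factors E2F7 and E2F8, and the pocket protein genes RB1, RBL1 and RBL2. All 10 were found once each in the table and all had enough counts to be tested. The cells were HCT-8, a colon cancer line of human origin kept as a monolayer, and their RNA was sequenced. There were 3 samples treated with the drug 5-fluorouracil (5-FU), which inhibits thymidylate synthase and whose metabolites enter RNA and DNA, and 3 controls with no treatment. The drug was given at the concentration that inhibits by 10%, which the labels relate to continuous infusion in patients, and its molar concentration and duration are not stated there. Whether the replicates came from separate cultures is also not stated, so each p-value reflects only how much these samples vary, which may be technical.

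An activator E2F binds DNA together with a DP partner and switches on genes for entry into S phase. The pocket proteins hold E2F factors inactive until cyclin-dependent kinases phosphorylate them, and RBL1 and RBL2 (p107 and p130) join E2F4 or E2F5 and the MuvB proteins in a complex, DREAM, that silences cell cycle genes in resting cells. E2F7 and E2F8 bind DNA without a DP partner and repress. In dividing cells the genes for E2F1, E2F2, E2F7, E2F8 and RBL1 are known to be E2F targets themselves.

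Since some of these genes are known targets of their own family, the bases before the start sites of 6 of them are shown, as RefSeq gives them on GRCh38.p14: 3 genes that fell most, E2F3, and a pair of genes that did not pass the test. Each is the stretch of 250 bases before the start, 5′ to 3′ on the gene's own strand. Capitals mark an E2F motif (TTTCCCGC, TTTCGCGC, TTTGCCGC or TTTGGCGC) or a CHR motif (TTTGAA), the element of G2/M promoters, searched on both strands in windows that also took in 50 bases after the start. The stretches are chr20:33686386-33686635 (minus strand) for E2F1, chr1:23531234-23531483 (minus) for E2F2, chr20:37095998-37096247 (minus) for RBL1, chr6:20401629-20401878 (plus) for E2F3, chr12:77065570-77065819 (minus) for E2F7 and chr16:67191905-67192154 (plus) for E2F4.

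E2F1: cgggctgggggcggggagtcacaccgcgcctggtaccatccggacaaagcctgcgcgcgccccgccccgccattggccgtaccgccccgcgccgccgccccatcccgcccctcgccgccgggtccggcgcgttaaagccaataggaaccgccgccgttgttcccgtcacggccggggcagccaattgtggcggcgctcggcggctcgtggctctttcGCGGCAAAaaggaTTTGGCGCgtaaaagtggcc

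E2F2: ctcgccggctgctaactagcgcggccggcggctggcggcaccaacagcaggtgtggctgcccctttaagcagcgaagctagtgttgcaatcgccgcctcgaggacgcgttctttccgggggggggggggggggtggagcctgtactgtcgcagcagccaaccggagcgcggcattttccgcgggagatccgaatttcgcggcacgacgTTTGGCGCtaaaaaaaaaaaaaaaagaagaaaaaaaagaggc

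RBL1: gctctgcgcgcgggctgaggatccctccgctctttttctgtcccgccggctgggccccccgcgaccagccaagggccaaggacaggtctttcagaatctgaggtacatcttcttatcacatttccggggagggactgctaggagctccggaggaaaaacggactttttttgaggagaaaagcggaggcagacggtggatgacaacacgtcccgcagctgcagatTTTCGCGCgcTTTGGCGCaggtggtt

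E2F3: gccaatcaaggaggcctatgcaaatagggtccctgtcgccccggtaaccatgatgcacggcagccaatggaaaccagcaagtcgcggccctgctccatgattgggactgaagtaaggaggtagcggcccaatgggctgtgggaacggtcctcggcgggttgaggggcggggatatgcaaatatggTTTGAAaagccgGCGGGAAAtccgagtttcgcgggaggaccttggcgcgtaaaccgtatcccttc

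E2F7: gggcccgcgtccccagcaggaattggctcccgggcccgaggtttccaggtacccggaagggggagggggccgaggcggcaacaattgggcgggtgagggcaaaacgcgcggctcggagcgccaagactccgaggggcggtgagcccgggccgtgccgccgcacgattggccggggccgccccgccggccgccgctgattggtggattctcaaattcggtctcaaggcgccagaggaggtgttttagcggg

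E2F4: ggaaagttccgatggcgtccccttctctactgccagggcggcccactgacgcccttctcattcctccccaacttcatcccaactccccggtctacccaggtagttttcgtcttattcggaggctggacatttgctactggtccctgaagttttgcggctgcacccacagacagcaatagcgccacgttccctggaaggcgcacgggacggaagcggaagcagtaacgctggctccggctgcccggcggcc

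E2F1 held 2 E2F motifs, beginning 33 and 20 bases before its start, and RBL1 held 2, at 26 and 16 bases. E2F2 held 1, at 42 bases, and E2F3 held 1 at 53 bases beside a CHR motif at 65 bases. The letters searched were not in the windows of E2F7 and E2F4. No motif printed here overlaps another. Of all 35116 windows of that length, 3.31% held an E2F motif and 15.2% a CHR motif. A RefSeq window of RBL2, whose start lies 494 bases downstream of the gene's first base, held a CHR motif 24 bases after that start. A further RBL2 window, with its start 1642 bases downstream, held no motif. E2F8 had no window, and E2F5, on chromosome 8, was left out, so motifs of neither are given. The genes printed were picked by how they changed, and whether motifs go with a fall was not tested. The RB1 window in the table lies 172724 bases inside the gene and is not used. E2F3 has a further start 1708 bases downstream of the gene's first base, with no motif in its window, and counts per gene do not tell its transcripts apart.

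Of the 10 genes, 7 fell after 5-FU and none rose, by edgeR's quasi-likelihood test at a Benjamini-Hochberg adjusted p under 0.05. That share must be read against the whole comparison, in which 70.2% of 19771 tested genes were called, 36.3% higher and 33.9% lower (7171 and 6706 genes, and 9602 and 4614 with upper-quartile factors in place of TMM). A call by itself therefore does not set these genes apart, and the description below turns on their direction, their sizes and the ratios between them. Levels are CPM, counts scaled to library size and TMM factors, except where FPKM, which also divides by gene length, is named. The median log2 fold change of all tested genes was 0.09. For 7 of the 10 genes the 5-FU and control CPM ranges were apart, as they were for 74.3% of all tested genes.

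**Figure D1:**
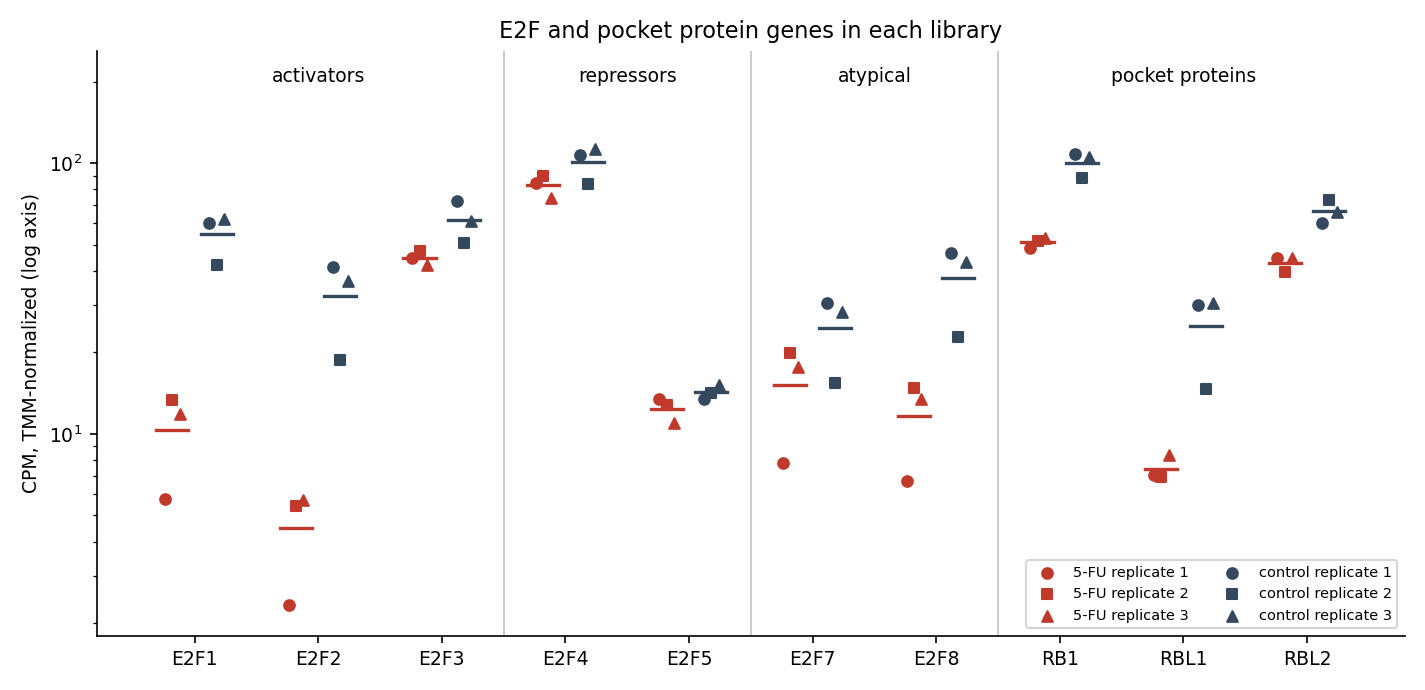
CPM of each of the 10 genes in each library on a log axis, with 5-FU in red and control in blue, one marker shape per replicate number and a bar at each group's mean. E2F1, E2F2, E2F8 and RBL1 show the widest gaps between the groups, while the groups overlap for E2F4, E2F5 and E2F7.

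Total counts per library ran from 18459939 to 23495607. Mitochondrially encoded genes took 25.5% to 28.5% of counts in 5-FU libraries and 4.66% to 4.88% in control libraries. Leaving these genes out before scaling changed no call among the 10 genes. Of the 10 genes of an epithelial identity list 9 were tested, of which 4 were lower after 5-FU, 1 was higher and 4 did not pass, with log2 fold changes of -2.11 to 1.74 (3 lower and 2 higher with upper-quartile factors). The list summed to 3187 to 3858 CPM in 5-FU libraries and 4257 to 5700 CPM in control libraries. Its members KRT8 and CDH1 stood at 1905 ± 403 and 624 ± 83.5 CPM in 5-FU libraries and at 2828 ± 517 and 560.2 ± 102 CPM in control libraries (SD, n = 3 each). KRT20 and PHGR1, of the same list, averaged under 2 CPM in both groups. Summed over 8 fibroblast genes the level was 34.4 to 64.8 CPM in 5-FU libraries and 15.97 to 20.5 CPM in control libraries, most of it COL1A1 (42.4 ± 16.1 CPM after 5-FU and 15.2 ± 3.06 CPM in control; SD, n = 3 each), with DCN and LUM at 0 counts in every library. Leukocyte genes summed to at most 11.4 CPM and endothelial genes to at most 5.55 CPM in any library. The part of these markers in the values below was not tested.

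Among the activators, E2F1 and E2F2 fell several-fold and E2F3 fell little. E2F1, the factor most closely tied to S phase entry (chromosome 20 at 33675683 to 33686404, minus strand of GRCh38), had 5.76, 13.4 and 11.9 CPM in 5-FU libraries, against 59.9, 42.0 and 62.3 CPM in control libraries. Every 5-FU library lay far below every control library, with 5-FU replicate 1 the lowest. The mean was 10.3 ± 4.05 CPM after 5-FU and 54.7 ± 11.1 CPM in control (SD, n = 3 each), which is 5.28-fold lower (log2 fold change -2.40, SE 0.26, edgeR adjusted p = 1.31e-05).

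E2F2, a close relative of E2F1 that is also low in resting cells (chromosome 1 at 23506430 to 23531220, minus strand), showed the largest change of the 10. It had 2.34, 5.42 and 5.68 CPM in 5-FU libraries, against 41.4, 18.8 and 36.7 CPM in control libraries. The groups were again apart, and 5-FU replicate 1 and control replicate 2 were the lowest of their groups. The fold was 7.18 (log2 fold change -2.84, SE 0.34, edgeR adjusted p = 2.23e-05), and 159 of the 19771 tested genes had a lower log2 fold change, against 283 for E2F1.

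E2F3, of which a shorter form is known to be made in resting as well as dividing cells (chromosome 6 at 20401906 to 20493715, plus strand), had 44.6, 47.6 and 42.0 CPM in 5-FU libraries, against 72.7, 50.7 and 61.1 CPM in control libraries. The groups did not overlap, but 5-FU replicate 2 and control replicate 2 were close. The change was 1.37-fold (log2 fold change -0.46, SE 0.14, edgeR adjusted p = 0.012). It lost its call without control replicate 1 (-0.36, edgeR adjusted p = 0.052), with upper-quartile factors (-0.10, edgeR adjusted p = 0.522) and among genes averaging 50 counts or more (-0.21, edgeR adjusted p = 0.192).

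The repressors E2F4 and E2F5 did not pass the test, and their direction is not settled, since both turned positive with upper-quartile factors, and E2F5 also among genes averaging 50 counts or more. E2F4, the E2F gene of highest mean FPKM in both groups (chromosome 16 at 67192169 to 67198918, plus strand), had 84.7, 89.7 and 74.5 CPM in 5-FU libraries, against 107.6, 83.5 and 112.8 CPM in control libraries. Control replicate 2 fell inside the 5-FU range. On the log2 scale the difference was -0.29 (SE 0.14, edgeR adjusted p = 0.0798), and without control replicate 2 it was -0.45 and passed (edgeR adjusted p = 0.00967).

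E2F5, which works with the pocket protein RBL2 (chromosome 8 at 85177225 to 85217158, plus strand), was low in both groups. It had 13.4, 12.8 and 10.9 CPM in 5-FU libraries, against 13.4, 14.2 and 15.1 CPM in control libraries. Those ranges overlap, and the difference was -0.20 on the log2 scale (SE 0.15, edgeR adjusted p = 0.248). Exons of C8orf59 on the opposite strand cover 16.3% of the exonic bases of E2F5. Whether counting used strand is not stated, so reads of such stretches cannot be assigned.

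Of the atypical factors, E2F8 fell and E2F7 did not pass. E2F8 (chromosome 11 at 19224063 to 19241620, minus strand) had 6.72, 14.8 and 13.5 CPM in 5-FU libraries, against 46.7, 22.8 and 43.0 CPM in control libraries. The groups were separate, with 5-FU replicate 1 and control replicate 2 the lowest of their groups. Its fold was 3.22 (log2 fold change -1.68, SE 0.30, edgeR adjusted p = 0.00041).

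E2F7, its closest relative and, as background, a gene that p53 can induce (chromosome 12 at 77021247 to 77065580, minus strand), had 7.79, 19.9 and 17.7 CPM in 5-FU libraries, against 30.4, 15.5 and 28.2 CPM in control libraries. Control replicate 2 lay below 2 of the 3 treated libraries. Its log2 difference was -0.71 (SE 0.32, edgeR adjusted p = 0.064). This result rests on single libraries: it passed without control replicate 2 (-0.99, edgeR adjusted p = 0.0119) and without 5-FU replicate 2 (-0.95, edgeR adjusted p = 0.0354), and was -0.37 without 5-FU replicate 1 (edgeR adjusted p = 0.197).

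All 3 pocket protein genes fell, RBL1 the most. RB1, the retinoblastoma tumour suppressor that restrains the activator E2Fs (chromosome 13 at 48303726 to 48599436, plus strand), had 48.6, 51.5 and 52.8 CPM in 5-FU libraries, against 108.1, 87.8 and 105.0 CPM in control libraries. The treated libraries were close together and all under the lowest control. RB1 was 1.97-fold lower (log2 fold change -0.98, SE 0.12, edgeR adjusted p = 2.71e-05).

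RBL1 encodes p107, the pocket protein of dividing cells (chromosome 20 at 36996349 to 37095995, minus strand). It had 7.03, 6.94 and 8.33 CPM in 5-FU libraries, against 29.9, 14.6 and 30.5 CPM in control libraries. The treated libraries lay close together, and control replicate 2 stood between them and the other controls. The fold was 3.36 (log2 fold change -1.75, SE 0.25, edgeR adjusted p = 8.72e-05).

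RBL2 encodes p130, the pocket protein of resting cells (chromosome 16 at 53433977 to 53491649, plus strand). It had 44.5, 39.5 and 44.6 CPM in 5-FU libraries, against 60.2, 72.9 and 65.8 CPM in control libraries. Here control replicate 2 was the highest library, whereas it was the lowest control for each of the other genes except E2F5. RBL2 was 1.55-fold lower (log2 fold change -0.63, SE 0.12, edgeR adjusted p = 0.000633), and with upper-quartile factors it did not pass (-0.27, edgeR adjusted p = 0.0687). Exons of AKTIP and of AC007342.6 on the opposite strand cover 8.33% and 9.85% of its exonic bases.

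**Figure D2:**
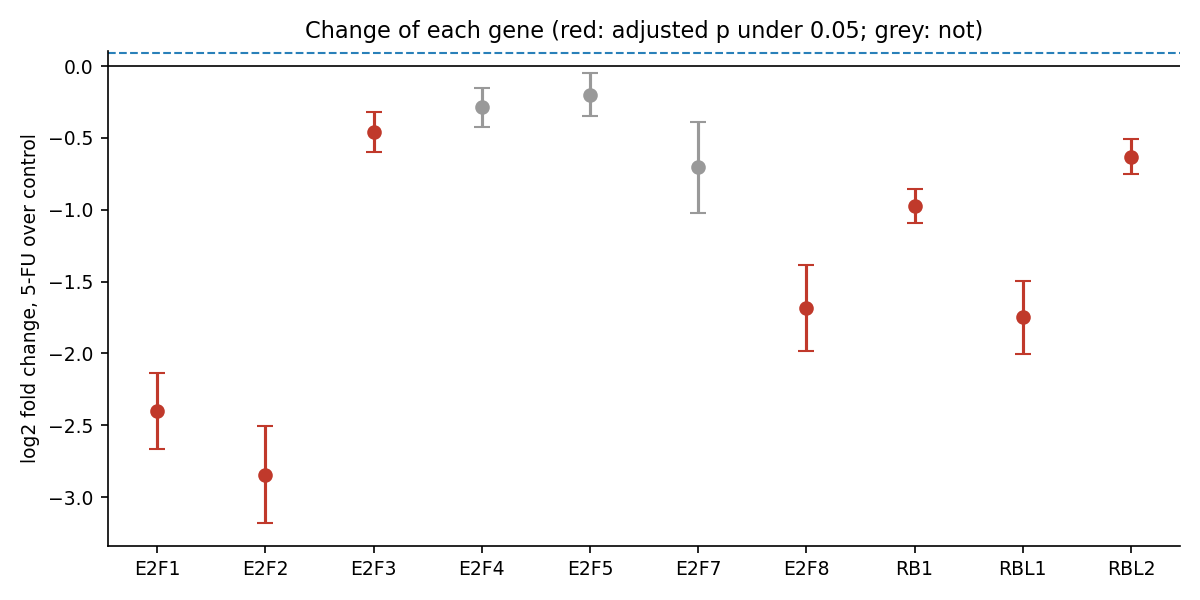
Log2 fold change of 5-FU over control for each gene with its standard error, with red for genes past an adjusted p of 0.05 and grey for the others. The dashed line marks the median of all tested genes at 0.09, and the points run from -2.84 for E2F2 to -0.20 for E2F5, and E2F4 and E2F5 turn positive with upper-quartile factors (E2F5 also among genes averaging 50 counts or more).

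The size of these changes depends on how libraries are scaled, most of all for the genes that moved little. Upper-quartile factors moved the median of all genes up by 0.36 on the log2 scale, and 5 of the 10 genes then fell, namely E2F1, E2F2, E2F8, RB1 and RBL1. E2F4 stood at 0.076 and E2F5 at 0.16 in that setting, against a median of 0.45. These 5 genes passed with a negative sign in each of the 18 alternatives that were run. Their log2 fold changes ranged from -2.63 to -2.04 for E2F1, from -3.15 to -1.97 for E2F2, from -1.98 to -1.32 for E2F8, from -1.12 to -0.61 for RB1 and from -2.06 to -1.26 for RBL1.

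A ratio between 2 genes of the same library does not depend on scaling, and 10 such ratios were compared between the groups by exact permutation (two-sided, where 0.1 is the smallest p that 3 against 3 allows). The groups were apart in the balance between E2F1 and E2F4. The log2 ratio of E2F1 to E2F4 counts was -3.87, -2.74 and -2.64 in 5-FU libraries, against -0.85, -0.99 and -0.86 in control libraries. The controls agreed within 0.08 (SD), and all treated libraries lay well below them, with a 4.55-fold difference in the ratio (exact permutation p = 0.1, 0.143 after adjustment over the 10 pairs). For E2F2 to E2F4 the difference was 5.97-fold (-2.58 on the log2 scale, exact permutation p = 0.1).

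E2F3 kept close to E2F4. Its log2 ratio to E2F4 averaged -0.89 ± 0.06 in 5-FU libraries and -0.72 ± 0.16 in control libraries (SD, n = 3 each), with overlapping ranges (difference -0.16, exact permutation p = 0.2, adjusted 0.222). The same held for E2F5 to E2F4, at -2.74 ± 0.08 and -2.82 ± 0.23 (SD, n = 3 each; difference 0.08, exact permutation p = 0.7). These p-values do not show that the ratios were equal.

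Within the atypical pair the order of the counts turned over, though not that of FPKM. The log2 ratio of E2F7 to E2F8 counts was 0.21, 0.43 and 0.39 in 5-FU libraries, against -0.62, -0.56 and -0.61 in control libraries. E2F7 thus had more counts than E2F8 in each treated library and fewer in each control library, including the libraries in which both were lowest. Counts are not corrected for length. By FPKM, E2F8 stayed above E2F7 in each library, at 1.47, 3.41 and 3.12 against 1.12, 3.02 and 2.68 FPKM in 5-FU libraries. The difference was 1.92-fold (0.94 on the log2 scale, exact permutation p = 0.1, adjusted 0.143), and leaving out any 1 library gave 0.90 to 1.005. E2F8 in turn was higher relative to E2F1 after 5-FU, with mean log2 ratios of 0.18 ± 0.04 in 5-FU libraries and -0.59 ± 0.27 in control libraries (SD, n = 3 each; exact permutation p = 0.1).

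Among pocket proteins, RBL1 was lower relative to both of its relatives, though control replicate 2 came near the treated libraries. The log2 ratio of RBL1 to RBL2 counts was -2.65, -2.50 and -2.41 in 5-FU libraries, against -1.01, -2.31 and -1.11 in control libraries. The gap between 5-FU replicate 3 and control replicate 2 is small beside the spread of the controls (difference of means -1.05, exact permutation p = 0.1, and -1.46 without control replicate 2). RBL2 to RB1 overlapped between the groups, at -0.25 ± 0.13 after 5-FU and -0.60 ± 0.30 in control (SD, n = 3 each; exact permutation p = 0.2). E2F1 to RB1, the activator against its inhibitor, was 2.82-fold lower after 5-FU (-1.50 on the log2 scale, exact permutation p = 0.1).

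**Figure D3:**
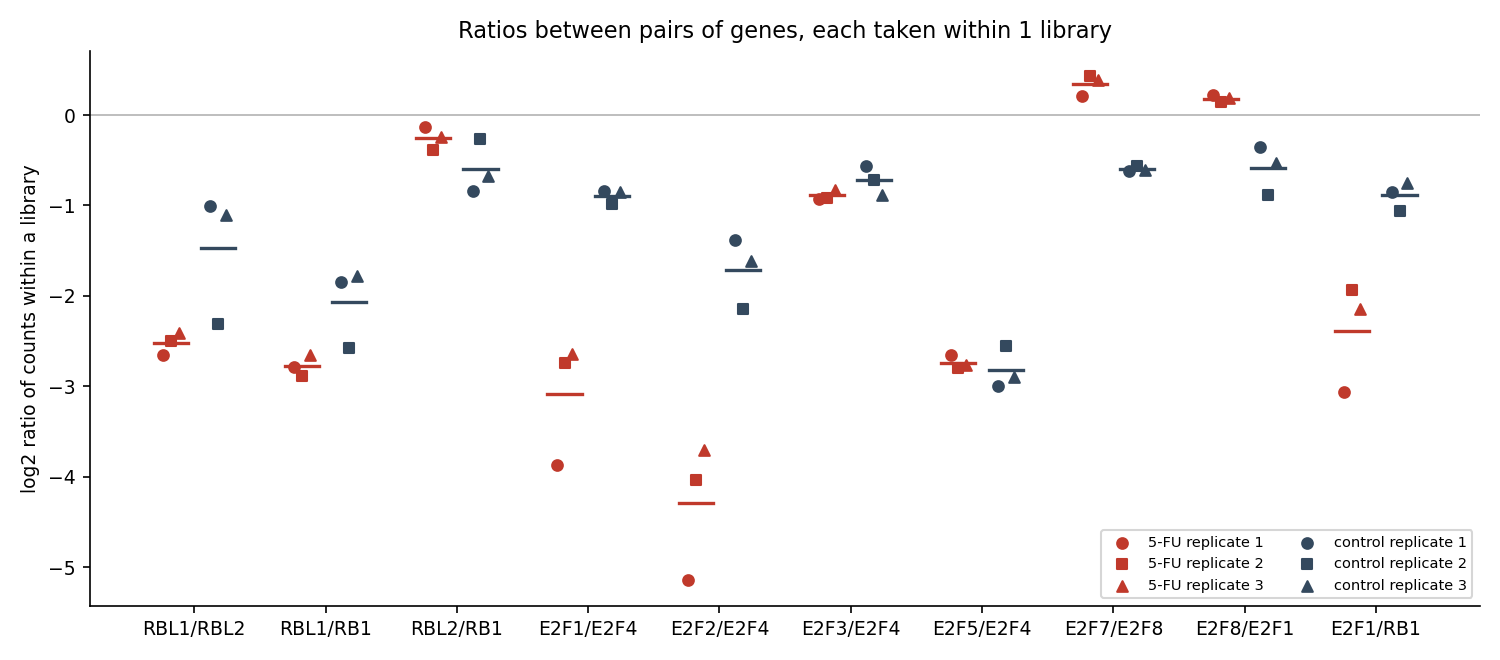
Log2 ratio of the counts of 2 genes, taken within each library, for 10 pairs, with 5-FU in red, control in blue and a bar at each group's mean. The groups are apart for 7 pairs and overlap for RBL2/RB1, E2F3/E2F4 and E2F5/E2F4, and E2F7/E2F8 lies above 0 in each 5-FU library and below 0 in each control library.

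Levels of different genes can be set side by side as FPKM. In 5-FU libraries the order was E2F4 (21.7 ± 2.05 FPKM), E2F3 (8.13 ± 0.58), RB1 (7.42 ± 0.54), RBL2 (5.49 ± 0.34), E2F1 (3.91 ± 1.62), E2F8 (2.67 ± 1.05), E2F7 (2.27 ± 1.02), E2F5 (1.96 ± 0.17), RBL1 (1.17 ± 0.15) and E2F2 (0.78 ± 0.34 FPKM; SD, n = 3 for each). Neighbours overlapped in that order from E2F3 to RB1 and from E2F1 through E2F5, and the other neighbours did not. In control libraries E2F4 (29.4 ± 4.98 FPKM) was followed by E2F1 (22.7 ± 4.93), RB1 (16.1 ± 2.01), E2F3 (12.4 ± 2.38), E2F8 (9.44 ± 3.35), RBL2 (9.39 ± 0.76), E2F2 (6.16 ± 2.34), RBL1 (4.38 ± 1.63), E2F7 (4.08 ± 1.38) and E2F5 (2.49 ± 0.16 FPKM; SD, n = 3 for each). There all neighbours overlapped except RBL2 and E2F2. The ranges of E2F4 and E2F1 thus overlapped in control libraries and stood well apart after 5-FU. Within each control library E2F4 was still above E2F1, at 31.5, 23.7 and 33.0 against 25.1, 17.1 and 26.1 FPKM.

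The make-up of the E2F transcripts differed accordingly. The activators held 28.3%, 31.4% and 32.7% of the summed FPKM of the 7 E2F genes in 5-FU libraries, against 48.5%, 47.2% and 47.0% in control libraries. The repressors held 64.5%, 55.0% and 53.1% in 5-FU libraries, against 34.4%, 40.3% and 36.8% in control libraries. Both sets of values were apart between the groups, and the repressors held less than the activators in every control library and more in every treated one. The mean difference was -16.8 percentage points for activators and 20.4 points for repressors (exact permutation p = 0.1 each, the smallest possible, and 0.144 after adjustment over 13 shares).

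Inside the activator class the shares went opposite ways, though the mean FPKM of E2F3 was also lower after 5-FU (8.13, against 12.4 in control). E2F1 held 9.23% ± 3.04 of E2F FPKM after 5-FU and 26.2% ± 0.75 in control, while E2F3 held 19.7% ± 1.56 after 5-FU and 14.4% ± 1.38 in control (SD, n = 3 each). By FPKM, E2F3 was the most abundant activator in each treated library and E2F1 in each control library. By counts, which are not corrected for length, E2F3 was above E2F1 in control replicates 1 and 2 (1620 against 1335 and 1121 against 930). It was just below in control replicate 3 (1239 against 1262). The atypical class held 11.6% ± 3.93 and 15.2% ± 2.43 (5-FU and control; SD, n = 3 each), with overlapping ranges (exact permutation p = 0.3). RB1 made up 52.7% ± 2.02 of pocket protein FPKM after 5-FU and 53.9% ± 1.797 in control, and RBL1 8.31% ± 0.54 and 14.4% ± 4.25 in the same order.

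**Figure D4:**
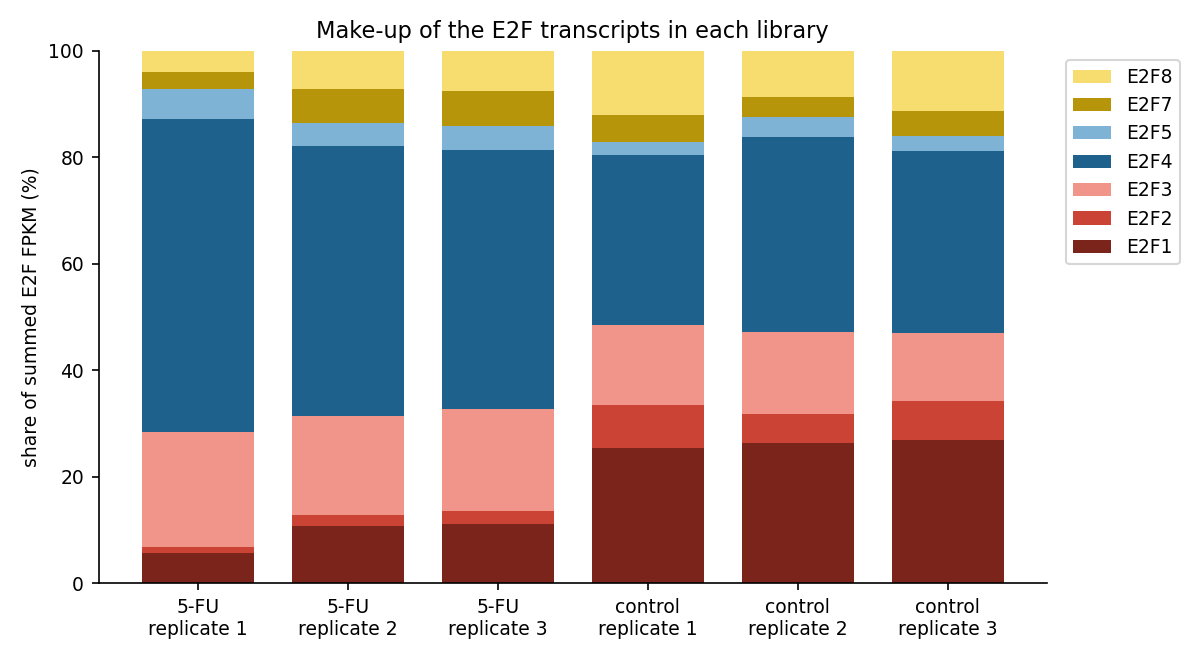
Share of each E2F gene in the summed FPKM of the 7 E2F genes, as stacked bars from 0% to 100%, 1 bar per library. The activators (reds) take 28.3% to 32.7% in 5-FU libraries and 47.0% to 48.5% in control libraries, and E2F4 (dark blue) takes 48.8% to 58.9% in 5-FU libraries and 32.0% to 36.6% in control libraries.

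Of the partners, TFDP1, the main DP subunit that E2F1 to E2F5 need to bind DNA, fell to 78.0 ± 11.3 CPM in 5-FU libraries, against 297 ± 68.9 CPM in control libraries (SD, n = 3 each; log2 fold change -1.93, SE 0.18, edgeR adjusted p = 5.52e-06). Its relative TFDP2 did not pass, at 46.7 ± 3.47 and 49.3 ± 9.37 CPM (5-FU and control; log2 fold change -0.08, SE 0.15). The DP genes thus stood 1.67-fold apart after 5-FU and 6.03-fold apart in control by mean CPM, a scale that does not correct for length. E2F6, a repressor that does not need pocket proteins, fell (-0.70, SE 0.15), a call lost with upper-quartile factors (-0.34), where TFDP2 stood at 0.27 (0.17 among genes averaging 50 counts or more). TFDP3 had no counts in any library.

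The MuvB proteins, the part of DREAM that stays on cell cycle promoters, went both ways. The list of these proteins, their MYB and FOXM1 partners and DYRK1A held 9 genes, of which 6 fell and 3 rose. Their median log2 fold change was -1.43, and 70.2% of all tested genes were called. LIN9 (-2.22), LIN54 (-1.43), which binds the CHR motif, and RBBP4 (-1.45) fell, while LIN37 (0.97) and LIN52 (0.46), the subunit whose phosphorylation assembles DREAM, rose. DYRK1A, the kinase that phosphorylates LIN52, rose as well (0.37, SE 0.12). The factors that MuvB carries in dividing cells fell most: MYBL2 to 10.5 ± 5.54 CPM after 5-FU, against 155 ± 47.0 CPM in control (-3.89, SE 0.38), and FOXM1 to 10.3 ± 2.58 CPM, against 123 ± 35.1 CPM (-3.57, SE 0.24). MYBL1 fell less (-1.07). Of the 3 that rose, LIN52 and DYRK1A did not pass without control replicate 2 (0.29 and 0.26, edgeR adjusted p = 0.0658 and 0.0741), and DYRK1A did not without 5-FU replicate 2 (0.32, edgeR adjusted p = 0.0651). Without the low-count filter, and on FPKM scales limited to genes of at least 1 FPKM, LIN37 was the 1 gene of the list that rose, and on unfiltered log2(FPKM + 1) none did (LIN37 0.41, limma adjusted p = 0.0741).

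Of 10 cyclins and kinases that act on pocket proteins, 6 fell, 1 rose and 3 did not pass. Of all tested genes, 33.9% were lower and 36.3% higher. CDK4 (-1.99), CDK2 (-1.42), CCNA2 (-3.74) and CDK1 (-3.28) fell, as did CCND3 (-0.43) and CDK6 (-0.36). CCNE1 (-0.37, SE 0.21) and CCNE2 (-0.44, SE 0.31), the cyclins of S phase entry and known E2F targets, did not pass, nor did CCND1 (0.19, SE 0.23). CCNE1 and CCNE2 rest on single libraries: both passed as lower without control replicate 2 (-0.63 and -0.81, edgeR adjusted p = 0.00496 and 0.00264), where 8 of the list fell, and stood at -0.21 and -0.12 without control replicate 1. With no filter on low counts both passed too (-0.52 and -0.59, edgeR adjusted p = 0.0115 and 0.0084). CCND2 rose to 23.9 ± 13.4 CPM after 5-FU, against 0.29 ± 0.13 CPM in control, where it had 9, 7 and 3 counts. With upper-quartile factors, and among genes averaging 50 counts or more, 4 of the list fell, CCND3 and CDK6 no longer passing. CCND1 rose with upper-quartile factors (0.55), as CCND1 did without 5-FU replicate 1 (0.44, edgeR adjusted p = 0.0469).

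CDK inhibitors split by gene, 3 of 7 rising and 4 falling, where 70.2% of all tested genes were called. CDKN1A, which encodes p21, rose to 1136 ± 252 CPM in 5-FU libraries, against 267 ± 78.7 CPM in control libraries (SD, n = 3 each; 2.09, SE 0.23, edgeR adjusted p = 1.17e-05). CDKN2B (3.32) rose, and so did CDKN2A (2.70), whose level stayed at 0.83 CPM after 5-FU and 0.12 CPM in control. CDKN2C (-3.51), CDKN1C (-1.58), CDKN1B (-1.53) and CDKN2D (-0.99) fell.

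Genes for the turnover of E2F factors and pocket proteins mostly fell, 12 of 13, where 33.9% of all tested genes were lower. SKP2 (-1.73) and CCNF (-2.20), F-box proteins that mark E2F factors for destruction, FBXO5 (-2.79) and CKS1B (-2.94) were among them. MDM2, which also binds the RB1 protein, rose (2.66). Of 18 corepressors that pocket proteins recruit, 10 fell, 2 rose and 6 did not pass, where 70.2% of all tested genes were called. RBBP8 (-1.97), DNMT1 (-2.17) and SUV39H1 (-2.55) were lower and SIN3B (0.88) and KMT5C (1.13) higher. With upper-quartile factors 8 corepressors fell and 6 rose, and among genes averaging 50 counts or more 9 fell and 6 rose. Of 10 tested apoptosis genes that E2F1 can induce, 5 fell, among them TP73 (-2.13), 3 did not pass, and BBC3 (1.24) and CDKN2A rose. Upper-quartile factors gave 3 lower and 3 higher, at a median of 0.05, and among the 9 averaging 50 counts or more 3 were lower and 2 higher.

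The genes of both target lists fell, though not every known E2F target did. CCNE1, CCNE2 and E2F7 did not pass and are not in the G1/S list. All 42 tested genes of the G1/S list, textbook E2F targets, fell, at a median log2 fold change of -2.55, against 0.09 for all tested genes and 33.9% of all genes lower. MCM6 (-3.12, SE 0.17), PRIM1 (-3.13, SE 0.19) and CHEK1 (-2.87, SE 0.16) had the smallest p. With upper-quartile factors 40 of the 42 passed and all 42 kept a negative sign. All 30 genes of the G2/M list, targets of DREAM and of MYBL2 and FOXM1, fell at a median of -3.72, with CCNB1 (-5.15, SE 0.25), CENPA (-3.43, SE 0.18) and CCNB2 (-4.11, SE 0.23). Of the windows of G1/S genes, 22 of 57 (38.6%) held an E2F motif and 3 (5.26%) a CHR motif. Of those of G2/M genes, 2 of 34 (5.88%) held an E2F motif and 17 of 34 a CHR motif. A gene can have several windows, and a match is a description of letters only.

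**Figure D5:**
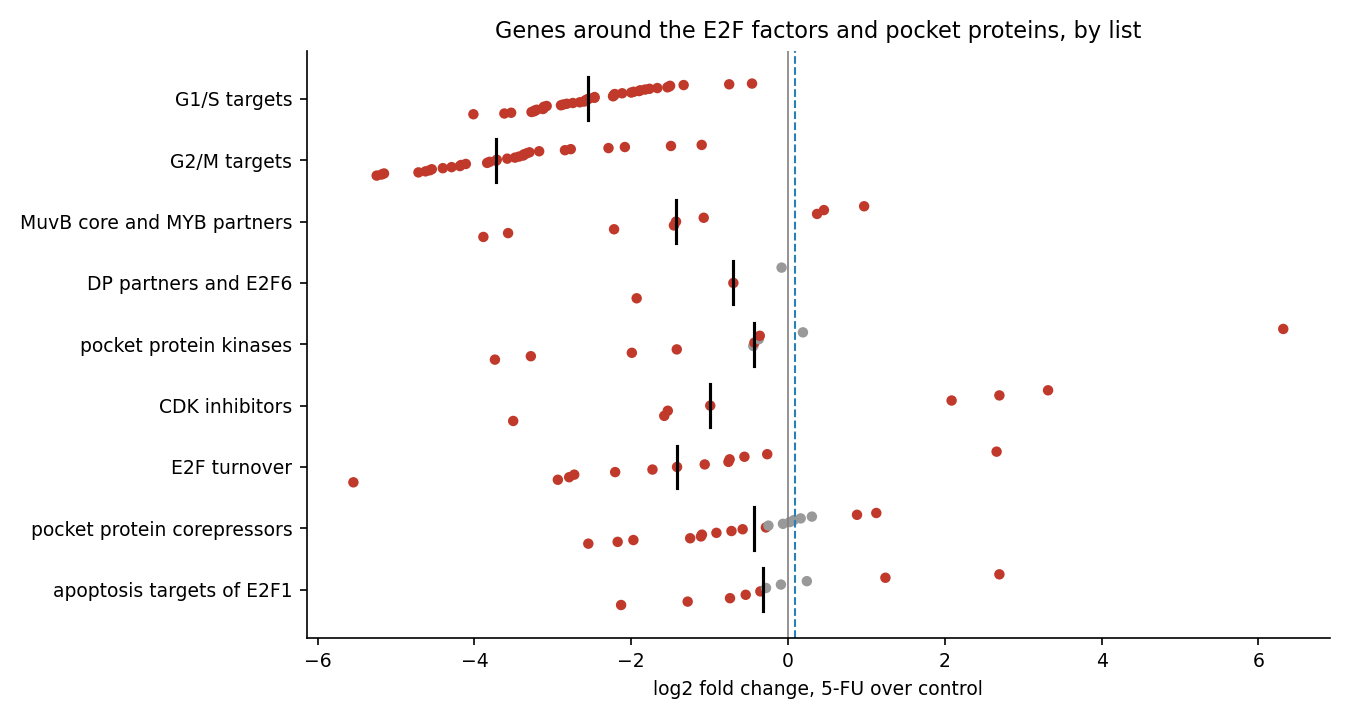
Log2 fold change of 5-FU over control for each tested gene of 9 lists, with red for genes past an adjusted p of 0.05, grey for the others, a black bar at each list's median and a dashed line at the median of all tested genes. Every point of the G1/S and G2/M lists lies below 0, while CCND2, CDKN2B, CDKN2A, MDM2 and CDKN1A lie at 2 or above.

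Libraries of a group also differed in how much of this programme they held. The G1/S genes summed to 557, 827 and 786 CPM in the 5-FU libraries, and to 4478, 2914 and 4760 CPM in the control libraries. The G2/M genes summed to 348, 527 and 498 CPM in the 5-FU libraries, and to 5438, 3920 and 6735 CPM in the control libraries. So 5-FU replicate 1 and control replicate 2 were the lowest of their groups, as they were for E2F1, E2F2, E2F7, E2F8 and RB1. The other genes of the family did not follow that order in full. E2F3, E2F4, E2F5, RBL1 and RBL2 were lowest in other treated libraries. Among controls, E2F5 was lowest in replicate 1 and RBL2 was highest in control replicate 2. In bulk RNA, fewer cycling cells and less RNA per cell cannot be told apart, and the part of the cycling fraction in the values of the 10 genes was not tested.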

How the data were processed

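Gene counts and FPKM of 6 libraries were used. The submitters' processing notes name DESeq2 1.16.1, featureCounts 1.5.0-p3, HISAT2 2.0.5 and build GRCh38. The strand setting and the handling of reads matching several genes are not stated. Libraries were made with a NEBNext Ultra RNA kit, per the labels' protocols. The deposited counts are whole numbers per gene. The deposited FPKM equal the count divided by gene length and by 1 constant per library. This constant was 1.07 to 1.16 times the total in 5-FU libraries and 0.892 to 0.986 times in control libraries. A scaling by the authors beyond the total thus remains in the FPKM, and it differs between the groups.

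Counts were compared with edgeR 4.0.16 in R 4.3.3 (quasi-likelihood test, filterByExpr with minimum count 10 and minimum total 15, TMM, group alone, Benjamini-Hochberg over 19771 genes). Each SE was taken as the fold change, unshrunk on the log2 scale, over the root of the F statistic. Log2 ratios used counts plus 1. Ratios and shares used exact permutation tests (scipy 1.17.1). Replicates differed beyond counting noise (chi-square of 10.2 to 26.5 per gene for each pair). The edgeR, DESeq2 1.42.0 and limma 3.58.1 fits were also run on simulated counts in which 200 genes were changed, as many up as down. Since 70.2% of genes were called here, that setting differs from these data and cannot vouch for the scaling. Alternatives were other scalings and filters, DESeq2, limma-voom, omission of each library, a replicate block, and limma-trend on log2 FPKM with 1 or 0.1 added, unfiltered or with 1 FPKM required in 3 libraries. That scale understates changes of low genes. Exon overlaps come from GENCODE release 29 and promoters from RefSeq.

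The members, lists and pairs were chosen with earlier results of these data known. All 10 members are named, any gene of lists of up to 13, and from longer lists up to 3 of smallest p in each direction; of identity and other cell type lists, the 2 most counted, beside genes at 0 or near it.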

Additional observations from a re-analysis of the deposited data

How the results depend on the processing

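For E2F2, the least counted member in 5-FU libraries at 46 to 120 counts, counting error is small beside the spread between libraries. For members of little spread, such as E2F5 in control libraries (299, 314 and 306 counts), it need not be. Over all genes, 7171 were higher and 6706 lower after 5-FU. On the log2(FPKM + 1) and log2(FPKM + 0.1) scales with the FPKM filter, 4320 and 4268 were higher. Of the calls, 51.7% were higher, against 67.5% with upper-quartile factors and 37.7% and 37.5% on those filtered FPKM scales. On log2(FPKM + 1) unfiltered, 6926 genes were higher and 6902 lower, which is 50.1% higher. Plain library totals moved the median of all genes by 0.11 and no call among the 10. With upper-quartile factors the log2 fold change was -0.10 for E2F3 and -0.27 for RBL2, which lost their calls, and 0.076 for E2F4 and 0.16 for E2F5, which turned. At a mean count of at least 50, E2F3 (-0.21) lost its call and E2F5 (0.053) turned. E2F4 passed without the low-count filter (-0.44) and on the FPKM + 1 and FPKM + 0.1 scales with the FPKM filter (-0.41 and -0.42), but not on FPKM + 1 unfiltered (-0.41, limma adjusted p = 0.0754), and E2F7 passed without that filter (-0.85).

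Leaving out 1 library gave -0.62 to -0.36 for E2F3, -0.45 to -0.24 for E2F4 and -0.99 to -0.37 for E2F7. The difference of the E2F5 to E2F4 log2 ratio ran from -0.013 to 0.21 when 1 library was left out. Without division by length, the activators' share of E2F counts differed by -12.7 points, against -16.8 by FPKM.

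Deviations of same-numbered libraries from their group means correlated at -0.07, -0.20 and 0.06, and those of differently numbered libraries at -0.12 to 0.17. With 3 libraries per group, such values cannot settle whether replicate numbers pair the libraries. With the replicate block, 6863 genes were higher and 6380 lower and 7 members fell, as without it. In the ratios and shares the block leaves the difference as it is, and its smallest sign-flip p is 0.25. The cause of these shifts was not tested.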
